A study of Mus musculus with 82 samples.

Results

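The occupancy of CTCF in wild-type stembryos was compared genome-wide between 168 h and 72 h after aggregation. The comparison used the 2 peak lists of wild-type CTCF ChIPmentation (ChIP-M) among the 82 samples of the series, 1 library at each stage. Peaks that touched were joined into regions within each list, and regions of the 2 lists that overlapped by at least 1 base were joined into sites. This gave 70551 sites on the 21 assembled chromosomes, of which 9197 (13.0%) were in the 168 h list only, 12568 (17.8%) were in the 72 h list only and 48786 (69.2%) were in both lists. The sites were then described by presence, by position at promoters or away from them, by rank within their list and by H3K27ac of the same stage.

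Stembryos are gastruloids, aggregates of mouse embryonic stem (mES) cells that form an elongating structure resembling the posterior body axis. The study used them to follow the sequential activation of Hox genes, with time courses of histone marks, cohesin and CTCF in wild-type lines and in lines with altered CTCF sites of the HoxD cluster. Both CTCF libraries came from wild-type mES cells (EmbryoMax 129/SVEV) and both stages had received the pulse of Chiron, a GSK-3 inhibitor and Wnt agonist, between 48 h and 72 h. The 168 h stembryos had then grown on without Chiron, whereas the 72 h stembryos were collected at the end of the pulse. Whole stembryos were pooled for each library, and from 108 h only elongating stembryos without signs of apoptosis were taken, so that the 168 h pool was selected by shape and the 72 h pool was not. In such pools, fewer cells with an occupied site and a lower occupancy in each cell cannot be told apart.

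CTCF is a zinc finger protein that binds a long, directional DNA motif and blocks the cohesin complex while cohesin extrudes a chromatin loop. Pairs of CTCF sites in convergent orientation thereby anchor loops and delimit domains within which enhancers contact promoters. RAD21 is a subunit of cohesin, NIPBL takes part in its loading, and acetylation of lysine 27 of histone H3 (H3K27ac) marks active enhancers and promoters. Methylation of a CpG inside the motif is known to reduce CTCF binding.

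The 2 lists differed in length and in pileup. The later library was nevertheless sequenced to fewer read pairs than the earlier one. The 168 h list held 84918 peaks and the 72 h list held 73381, and these formed 57992 regions over 39.9 Mb at 168 h and 64255 regions over 21.3 Mb at 72 h. The pileup, the number of fragments over a peak's summit, had a median of 37 and a maximum of 942 at 168 h, and a median of 25 and a maximum of 179 at 72 h. The local background that the peak caller set against it was at least 2.93 at 168 h and at least 2.03 at 72 h. Regions were wider at 168 h, with a median of 582 bp against 323 bp at 72 h, and 30.9% of regions at 168 h against 12.9% at 72 h held several summits. With 1 library at each stage, library and stage cannot be told apart, no difference between the stages has a replicate check, and the intervals given are exact (Clopper-Pearson) 95% intervals that cover counting error only. H3K27ac at the promoters of marker genes gave a mixed picture of the stages. It was found at 7 of 21 genes of naive pluripotency at 168 h and 17 of 21 at 72 h, and at 16 of 19 neural genes at 168 h and 12 of 19 at 72 h. Genes of the heart, vessels and blood went against a later stage, with 4 of 17 at 168 h and 12 of 17 at 72 h, as did endoderm genes, with 5 of 10 and 7 of 10. Presomitic mesoderm genes differed little, with 14 of 20 at 168 h and 13 of 20 at 72 h, and over all protein-coding genes the shares were 57.2% at 168 h and 64.3% at 72 h.

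A position weight matrix of 17 bases was learnt from 1500 shared sites at percentile 50 or above in both lists and tested on 1500 other shared sites, of which 1328 lay below percentile 50 in at least 1 list. Within 60 bp of the summit it matched 75.5% of the test sites and 4.87% of the windows 1000 bp away. Several of the highest-ranked sites in 1 list only held no match within 100 bp, among them those near Nrsn1 (168 h) and Pak3 (72 h). The matches at some of the other named sites are shown as examples. Each is read from GRCm38 (mm10) 5′ to 3′ on the strand of the match, with capitals at matrix positions 2 to 13, which hold at least 1 bit of information.
Matrix consensus, from shared sites: GCCACCAGGGGGCGCCA
168 h only, Sox11 promoter, chr12:27343110-27343126, plus strand: aGCAGAAGGTGGCgctt
168 h only, Tcim promoter, chr8:24437948-24437964, plus strand: aACAGCAGGGGGTgcac
168 h only, distal to Nkx6-1, chr5:101297100-101297116, minus strand: cCCTGCTGGGGGCgcta
168 h only, upstream of Xist, chrX:103484231-103484247, plus strand: aCCAGCAGGTGGCagca
168 h only, Slu7 promoter, in a masked repeat, chr11:43433352-43433368, minus strand: aCCAGAAGAGGGCatca
168 h only, distal to Hes1, in a masked repeat, chr16:29838758-29838774, plus strand: aCCAGAAGAGGGCgtca
72 h only, Trim30b promoter, chr7:104369958-104369974, plus strand: aCCACCAGAGGGAgtca
72 h only, Clic5 intron, chr17:44261985-44262001, plus strand: gCCAGAAGGTGGCgcca
72 h only, Cdh1 promoter, chr8:106603276-106603292, minus strand: aCCTGCAGGTGGCagcc
72 h only, Firre locus, chrX:50566541-50566557, minus strand: tCCTCATGGTGGCagta
both lists, Ret intron, chr6:118195286-118195302, plus strand: tCCACAAGAGGGCaccg

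Most CTCF regions of either stage were found at the other. In the 168 h list, 15.9% of the 57992 regions (interval 15.6 to 16.2) had no counterpart at 72 h. In the 72 h list, 19.6% of the 64255 regions (interval 19.3 to 19.9) had no counterpart at 168 h. When the 72 h list was reduced to its 57992 highest-ranked regions, the order turned: 10942 regions were in the 168 h list only and 8926 in the 72 h list only. Which list held more sites of its own therefore depended on the length of the lists.

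The sites in 1 list only had low ranks. Regions were ranked within their list by the −log10 p of the peak caller, and the rank is given as a percentile, with 100 for the highest. The median percentile was 11.3 for 168 h-only sites in their list and 17.6 for 72 h-only sites in theirs, whereas shared sites had a median of 57.9 at 168 h and 61.4 at 72 h. Of the 168 h-only sites, 74 (0.805%) lay above percentile 50 and none above percentile 75. Of the 72 h-only sites, 474 (3.77%) lay above percentile 50 and 15 above percentile 75. In the lowest decile of rank, 72.8% of the 168 h regions and 67.5% of the 72 h regions were in that list only. In the highest decile it was 0 of 5800 at 168 h (upper bound 0.0636%) and 3 of 6425 at 72 h (0.0467%). The strongest regions of each stage were occupied at the other, yet not in the same order: of the 1000 highest-ranked regions at either stage, 437 were among the highest 1000 of the other. All 1000 of the 168 h regions and 999 of the 72 h regions were in the full list of the other stage. Among the highest 30000, 86.9% of the 168 h regions and 88.6% of the 72 h regions were among the highest 30000 of the other.

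**Figure D1:**
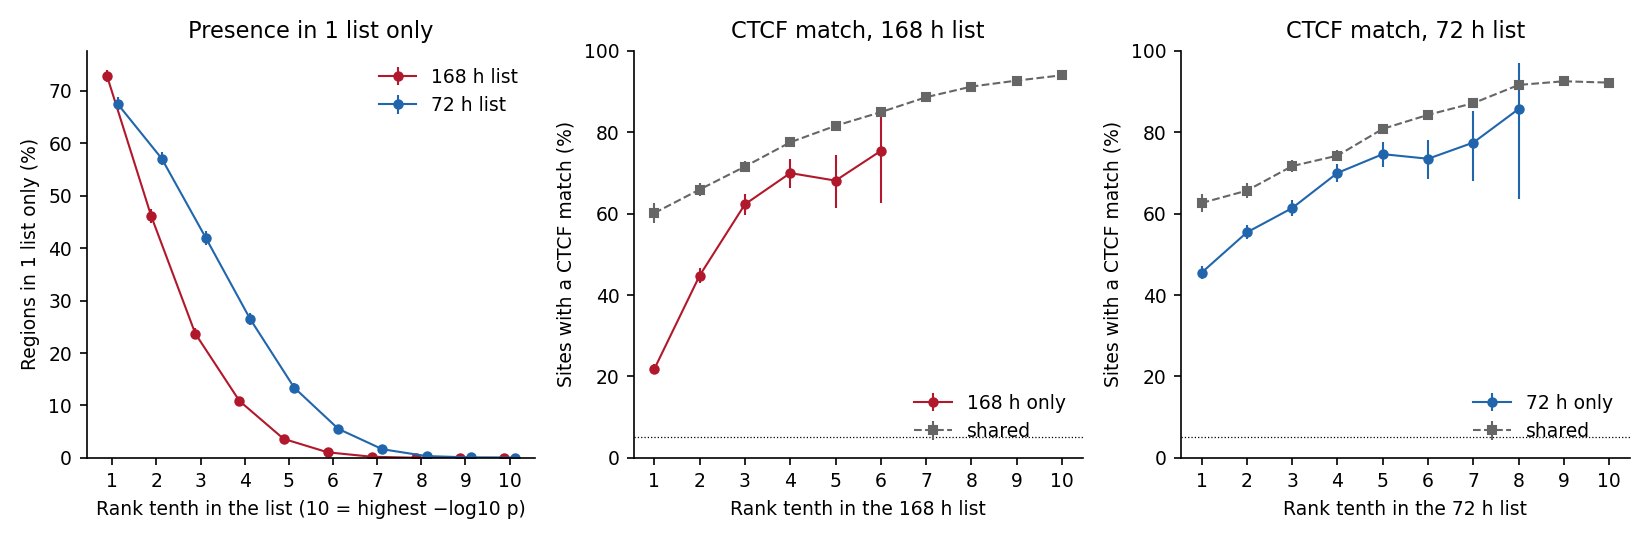
Share of regions in 1 list only (left, %) and share of sites with a CTCF match (middle and right, %) by decile of rank, where decile 10 holds the highest −log10 p; bars are exact 95% intervals, and the dotted line is the 5% of windows 1000 bp away that reach the score. In the lowest decile 72.8% of 168 h regions and 67.5% of 72 h regions were in 1 list only, and the CTCF match was found at 21.8% of 168 h-only sites and 45.5% of 72 h-only sites.

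The CTCF motif was less frequent at sites in 1 list only. A match within 60 bp of the summit was found at 39.3% of 168 h-only sites (interval 38.3 to 40.3), at 57.6% of 72 h-only sites (interval 56.7 to 58.4) and at 83.7% of shared sites (interval 83.4 to 84.0). In windows 1000 bp away from the same summits the shares were 5.77%, 4.42% and 5.00%. Promoter sites held fewer matches than distal ones in each class: 29.3% against 40.5% among 168 h-only sites, 32.8% against 60.8% among 72 h-only sites, and 67.9% against 85.7% among shared sites.

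The motif was also compared between sites of like rank. In the lowest decile of the 168 h list, 21.8% of 168 h-only sites and 60.1% of shared sites held a match. In the lowest decile of the 72 h list it was 45.5% of 72 h-only sites and 62.6% of shared sites. In the fourth decile the gap was smaller, with 70.0% of 168 h-only sites and 77.5% of shared sites at 168 h, and 70.0% of 72 h-only sites and 74.2% of shared sites at 72 h. A CpG at matrix positions 13 and 14, at the edge of the core, was present in 24.5% of the matches of 168 h-only sites, 20.1% of those of 72 h-only sites and 32.3% of those of shared sites, counted over matches within 100 bp of the summit.

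A small set of motif words recurred at 168 h-only sites. The 5 words shown were picked after the values were seen, and each of their matches lay in a masked repeat of the reference. Their order follows their counts over the sites in 1 list only, so their higher share there is a description and no test. They are shown because they make up 35.4% of the matches of 168 h-only sites, 19.4% of those of 72 h-only sites and 6.91% of those of shared sites. The gap was smaller at like rank. In the lowest quartile of rank of the 168 h list, they made up 38.1% of the matches of 168 h-only and 20.6% of those of shared sites. In that of the 72 h list, 72 h-only and shared sites hardly differed, with 22.8% and 22.01%.
Word 1: aCCAGAAGAGGGCatca
Word 2: aCCAGAAGAGGGCgtca
Word 3: gCCAGAAGAGGGCatca
Word 4: aCCAGAAGAGGGCatcg
Word 5: tCCAGAAGAGGGCgtca
Word 1 accounted for 18.1% of the matches of 168 h-only sites, 8.27% of those of 72 h-only sites and 1.87% of those of shared sites. Word 2 accounted for 10.8%, 3.57% and 1.43%. Word 3 was in contrast less frequent at 168 h-only sites (2.24%) than at 72 h-only sites (4.28%) and shared sites (3.07%). B2 elements, short interspersed repeats of rodents, are known to carry CTCF motifs, but the reference used here marks repeats without naming their families.

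Cohesin was found less often at these words: 32.0% of the 168 h-only sites with 1 of them overlapped a RAD21 region in at least 1 of 16 wild-type lists, against 62.1% of 168 h-only sites with another match. For 72 h-only sites the shares were 55.7% and 69.4%, and for shared sites 80.9% and 94.9%. Sites with these words also ranked lower. Their median percentile was 15.3 against 16.9 for 168 h-only and 16.02 against 20.6 for 72 h-only sites. For shared sites it was 33.5 against 63.2 at 168 h and 36.5 against 66.4 at 72 h. Cohesin at the words was not compared at like rank. At least 1 mutant CTCF list held 41.1% against 39.03% of these 168 h-only sites and 39.09% against 38.7% of the 72 h-only sites. For shared sites it was 90.1% against 96.8%. Of all sites, the summit lay in a masked repeat at 38.1% of 168 h-only, 38.4% of 72 h-only and 26.2% of shared sites. Among sites of low rank this order turned. In the lowest quartile of rank of the 168 h list, the shares were 37.4% of 168 h-only and 40.7% of shared sites. In that of the 72 h list, they were 39.7% of 72 h-only and 42.9% of shared sites.

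The classes lay at similar places in the genome. Promoters, taken as regions within 1 kb of the start of a protein-coding transcript, held 10.8% of 168 h-only sites (interval 10.2 to 11.5), 11.6% of 72 h-only sites and 11.4% of shared sites (interval 11.2 to 11.7). Introns held 43.5% of 168 h-only sites, 37.8% of 72 h-only sites and 39.7% of shared sites. Intergenic sequence held 41.7%, 46.0% and 44.2%, in the same order. The median distance of distal sites from the nearest start was 23.2 kb, 23.4 kb and 22.7 kb. The 168 h-only sites were thus more often intronic and less often intergenic than the 72 h-only sites, by margins beyond the counting intervals.

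H3K27ac at distal sites followed the stage at which CTCF was found. Of 8202 distal 168 h-only sites, 4.05% (interval 3.63 to 4.50) overlapped an H3K27ac region of 168 h and 2.80% (interval 2.46 to 3.18) one of 72 h. Of 11115 distal 72 h-only sites, 1.77% (interval 1.54 to 2.04) overlapped H3K27ac of 168 h and 5.10% (interval 4.70 to 5.53) that of 72 h. Distal shared sites carried it at 5.33% and 8.10%. Counted by stage, 202 distal 168 h-only sites were acetylated at 168 h and not at 72 h, and 100 the other way round. For distal 72 h-only sites these numbers were 65 and 435, and for distal shared sites 939 and 2135. Acetylation at neither stage was the rule away from promoters, with 94.7% of 168 h-only sites and 94.3% of 72 h-only sites. The H3K27ac list of 168 h had 36784 regions and that of 72 h had 47221.

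At promoters the same order was not seen by overlap of regions. H3K27ac of 168 h covered 58.9% of 168 h-only, 44.2% of 72 h-only and 55.2% of shared promoter sites, and H3K27ac of 72 h covered 62.9%, 48.5% and 64.0%. Within 250 bp of the summit, where the width of the CTCF region plays no part, H3K27ac of 72 h covered 66.0% of 168 h-only and 71.0% of 72 h-only promoter sites. H3K27ac of 168 h covered 61.7% and 61.4% there. By this measure, 33 168 h-only promoter sites were acetylated at 168 h and not at 72 h, and 76 the other way round. For 72 h-only promoter sites these numbers were 34 and 173, and for shared ones 184 and 630. By overlap of regions, RNA polymerase II (PolII) ChIP-M of 168 h covered 47.0% of 168 h-only and 56.9% of 72 h-only promoter sites. That of 72 h covered 46.7% and 64.4%.

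Shared sites kept much of their order. Over the 48780 shared sites with a pileup at both stages, Spearman's correlation was 0.869 for −log10 p and 0.896 for the pileup. This is a correlation across sites, which share their libraries. The percentile at 168 h differed from that at 72 h by a median of 8.28 points in either direction. It was at least 25 points higher at 168 h for 1349 sites (2.77%) and at least 25 points lower for 2887 sites (5.92%).

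For a measure of size, the pileup of each site was divided by the sum over shared sites of its list, and the ratio of these shares was taken as 168 h over 72 h. The median ratio was 0.883. The share was at least 2-fold higher at 168 h for 287 sites (0.588%) and at least 2-fold lower for 6176 sites (12.7%). For 20 sites the whole interval of the ratio lay above 2, for 414 it lay below 0.5, and for 70.9% of sites it included 1. The split rested on the scaling: with the lowest background of each list as the scale, 5568 sites were at least 2-fold higher and 1433 at least 2-fold lower, and the median log2 ratio moved to 0.36, against -0.18 with the sum. The ratio also followed the pileup, with a median of 0.672 in the third decile of pileup at 72 h and 1.22 in the highest. Ranks within the lists, which need no scale, are therefore given beside the ratios below.

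H3K27ac also went with the rank of shared sites. Distal shared sites acetylated at 168 h and not at 72 h ranked higher at 168 h by a median of 2.16 points (59.9% of 939 sites were higher). Those acetylated at 72 h and not at 168 h ranked lower at 168 h by a median of -2.91 points (36.9% of 2135 sites were higher). Sites acetylated at both stages had a median of -0.00 points and those acetylated at neither had -1.59 points. Within the second quartile of mean percentile the medians were 4.75 and -11.1 points for the first and second of these groups, and in the highest quartile 1.33 and -1.09 points. Promoter sites went the same way, with a median of 2.77 points for 172 sites acetylated at 168 h and not at 72 h, and -2.91 points for 662 sites acetylated at 72 h and not at 168 h.

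**Figure D2:**
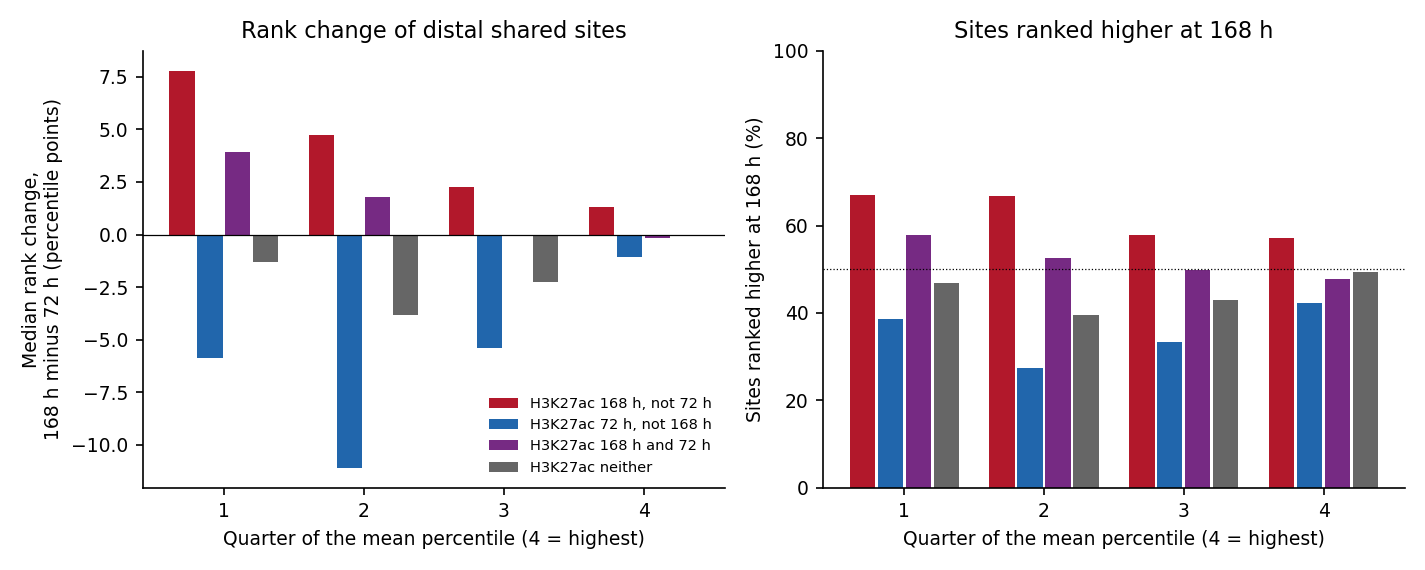
Median rank change of distal shared sites (left, percentile points, 168 h minus 72 h) and share of them ranked higher at 168 h (right, %), by quartile of the mean percentile and by H3K27ac of the 2 stages. In each quartile the sites acetylated at 168 h and not at 72 h lay above 0 (7.80 to 1.33 points) and those acetylated at 72 h and not at 168 h below 0 (-11.1 to -1.09 points).

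Cohesin also went with the rank. Shared sites that overlapped a RAD21 region at 168 h and in neither of the 2 lists of 72 h ranked higher at 168 h by a median of 5.23 points (65.3% of 1245 sites). Those with RAD21 in at least 1 list of 72 h and not at 168 h ranked lower by a median of -8.95 points (26.4% of 9736 sites were higher). Of the 168 h-only sites, 10.6% overlapped RAD21 of 168 h, and 5.25% and 2.23% overlapped RAD21 in the 2 lists of 72 h. Of the 72 h-only sites, 4.40% overlapped RAD21 of 168 h, and 28.1% and 13.0% overlapped it in the lists of 72 h. The 168 h list of RAD21 held 34316 regions, against 46961 and 31823 in those of 72 h.

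Among sites of percentile 25 or lower, RAD21 of the same stage separated the classes little in the 168 h list. In the 72 h list it was less frequent at unshared than at shared sites. Within 250 bp of the summit, RAD21 of 168 h was found at 7.98% of 168 h-only sites and 8.08% of shared sites of that list. RAD21 of 72 h (first list) was found at 4.25% and 30.9% of the same sites. Among such sites of the 72 h list, RAD21 of 72 h (first list) was found at 21.1% of 72 h-only and 24.1% of shared sites. The second RAD21 list of 72 h gave 8.67% and 11.3%, and RAD21 of 168 h gave 4.95% and 15.8%. Distal H3K27ac of the same stage was more frequent at the unshared sites: that of 168 h at 3.77% of 168 h-only and 2.33% of shared sites, and that of 72 h at 7.36% of 72 h-only and 4.19% of shared sites.

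RAD21 was measured at 8 stages, so that the classes could be followed in time in lists that had no part in choosing them. For each of the 16 wild-type RAD21 lists the share of 72 h-only sites with RAD21 was subtracted from the share of 168 h-only sites with RAD21. The difference was -23.2 points in the 1 list of 48 h and averaged -16.8 ± 8.50 points at 72 h (SD, n = 2 lists). It averaged -15.7 ± 4.73 points (n = 2) for 84 h and -12.5 ± 1.35 points (n = 3) for 96 h. Later it averaged -5.75 ± 0.667 points (n = 2) for 108 h, -1.75 ± 4.57 (n = 2) for 132 h and 0.04 ± 1.98 (n = 3) for 144 h, and it was 6.16 points in the 1 list of 168 h. The stage means of this difference were higher at each later stage. Spearman's correlation with time was 1 (two-sided exact permutation test over 8 stages, p = 5e-05, the smallest these permutations can give; 9.9e-05 after Benjamini-Hochberg adjustment over the 2 relations tested). Pearson's r was 0.992 (exact permutation p = 2.5e-05, adjusted 5e-05), and without 48 h and 168 h, the stages farthest from the median, it was 0.979 (exact permutation p = 0.0014).

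The RAD21 labels fall into 2 sets by the tag under which they name the cells, and the labels do not say what the tag stands for. Spearman's correlation was 0.893 within the lists with the cell line tag and 0.929 within those with the cell type tag (7 stages each, exact permutation p = 0.012 and 0.0067). At 72 h the 2 sets differed, with -10.8 points in the cell line set and -22.8 points in the cell type set. At 132 h they were at -4.98 and 1.48 points, in the same order. The cell line set stayed below 0 up to its last stage, 144 h (-0.642 points). The only list of 48 h had the cell line tag and the only list of 168 h the cell type tag. The share of 168 h-only sites with RAD21 was 9.26% at 48 h and 10.6% at 168 h, with its highest stage mean at 132 h (21.5%). That of 72 h-only sites was highest at 48 h (32.4%) and was 4.40% at 168 h. RAD21 lay over 56.1% to 85.9% of shared sites in the 16 lists.

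H3K27ac at distal sites had a similar course over 9 stages. The share of 168 h-only sites acetylated minus that of 72 h-only sites was negative early, with -1.51 points for 48 h, -2.30 for 72 h and -1.28 for 84 h. It was 0.206 points for 96 h, 0.902 for 108 h and 1.44 for 120 h, and then 1.63 for 132 h, 1.14 for 144 h and 2.28 for 168 h. The sign thus differed between 84 h and the next stage. Spearman's correlation was 0.933 (two-sided exact permutation p = 0.00075, adjusted 0.00075) and r was 0.906 (exact permutation p = 0.00066, adjusted 0.00066). Without 48 h and 168 h, r was 0.898 (exact permutation p = 0.0036). The 2 relations share their CTCF sites and are not independent of each other.

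**Figure D3:**
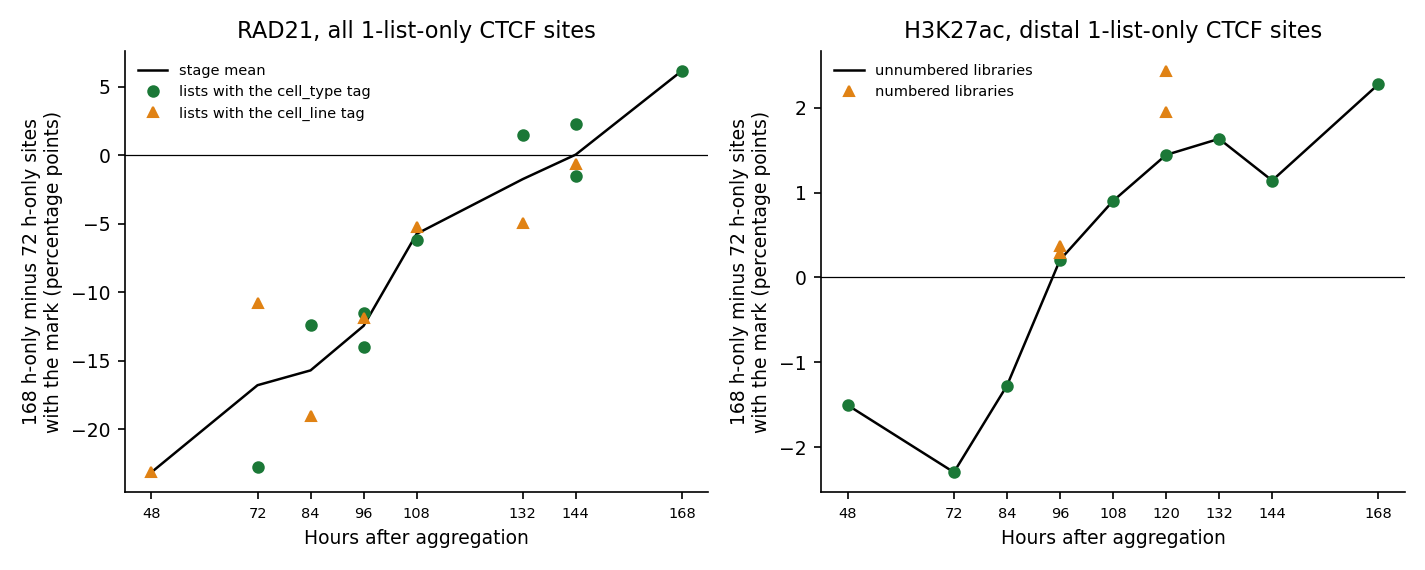
Difference between the share of 168 h-only and the share of 72 h-only CTCF sites with RAD21 (left, all sites) and with H3K27ac (right, distal sites), in percentage points against hours after aggregation; points are single lists and the line joins the stage means (left) or the unnumbered libraries (right). The line climbs from -23.2 points at 48 h to 6.16 at 168 h for RAD21, and from -1.51 at 48 h to 2.28 at 168 h for H3K27ac.

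The strongest 168 h-only promoter site was at Sox11, a transcription factor of neural progenitors and young neurons (chr12:27342957-27343287, 0.549 kb upstream of the start). It had a pileup of 73 over a background of 5.77 at 168 h and was not in the 72 h list, and RAD21 was found there in 14 of 16 lists. The promoter of Tcim, a regulator of Wnt signalling, followed with a pileup of 66, and it was acetylated at 168 h only. Pkp4, a junction protein of the armadillo family, had a pileup of 46 and RAD21 in 14 of 16 lists. Fam198b had the highest pileup of the group, 82, but over a background of 15.6 and with RAD21 in none of the 16 lists. Chst11 (a chondroitin sulfotransferase), Slu7 (a splicing factor), Intu (an effector of planar cell polarity and cilia), Bach2 (a transcriptional repressor), Sgms1 (sphingomyelin synthase) and Zbtb7c made up the 10, with pileups of 36 to 52.

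Away from promoters, the strongest 168 h-only site lay 458 kb from the start of Nrsn1, a neuronal vesicle protein (chr13:25727357-25727852, intergenic, pileup 63, percentile 70.3). The next were near Gpc5, a glypican, with RAD21 in 16 of 16 lists, and near Nkx6-1, a homeodomain factor of the ventral neural tube (chr5:101296806-101297427, intergenic, 368 kb downstream, pileup 68). The Nkx6-1 site was acetylated at 168 h only and was found in 5 of 6 CTCF lists of mutant stembryos. A site 227 kb upstream of Hes1, a repressor downstream of Notch, had a pileup of 58, was acetylated at 168 h only and held word 2 in a masked repeat. The other 6 were near Spred2, Tmem161b, Prdm6, Kdm8, Tha1 and Vezt, with pileups of 51 to 60. Of these 10 distal sites, those near Nkx6-1, Tmem161b, Prdm6, Hes1 and Tha1 were acetylated at 168 h, and none was acetylated at 72 h.

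The strongest promoter site of the 72 h list only was at Ezh1, a histone methyltransferase of Polycomb repressive complex 2 (chr11:101226376-101226756, 0.143 kb upstream). Its pileup was 55 over a background of 3.63 at 72 h, at percentile 86.4, and it was not in the 168 h list. Dmkn, which encodes the epidermal protein dermokine, had a pileup of 49 and was acetylated at 72 h only. Trim30b, Eid2 (an inhibitor of differentiation), Las1l (a ribosome biogenesis factor), Slc44a3, Cpxm2, Mfsd6l, the olfactory receptor gene Olfr434 and Sirt4 (a mitochondrial sirtuin) followed, with pileups of 33 to 53. Acetylation at 72 h only was found at Dmkn, Slc44a3, Cpxm2 and Mfsd6l.

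The highest-ranked distal site of the 72 h list only lay near Pak3, a kinase gene of the X chromosome (chrX:143482989-143483144, intergenic, percentile 98.8). It had a pileup of 62 over a background of 2.03, yet RAD21 was found there in 1 of 16 lists and CTCF in none of the 6 mutant lists. The site near Gm10800 had a pileup of 144 over a background of 22.6. Sites near Ovol2, a zinc finger factor of epithelial cells (pileup 52), in Clic5 (pileup 57, RAD21 in 15 of 16 lists) and in Hdac1, a histone deacetylase (pileup 50, RAD21 in 13 of 16 lists), had low backgrounds of 2.87 to 4.37. The others were near 4931417E11Rik, 1190007I07Rik, Tex13c2, Rab10 and Naaladl2. None of the 10 was acetylated at either stage.

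Among shared sites, the ratios with the highest lower bounds lay largely in places of high background. The site near Col19a1 (chr1:24612436-24613513) had a pileup of 744 at 168 h against 43 at 72 h, a ratio of 8.26 (interval 6.07 to 11.5), over backgrounds of 23.6 at 168 h and 2.03 at 72 h. Sites near Ccr1, near Gm15319 (at 2 places), at Gm47283 on chromosome Y, at Gm10801 and near Gm11127 had pileups of 469 to 942 at 168 h and backgrounds of 17.2 to 228. No regions were filtered out of the lists for high signal, and the part of the background in these ratios was not tested. Lower backgrounds, of 4.72 to 11.6 at 168 h, were found at the sites near Dach1 (104 at 168 h against 8 at 72 h, ratio 6.20, interval 3.03 to 14.8), near Hdgfl1 (8 at 72 h, ratio 6.14, upper bound 14.6) and in Ret. Ret encodes the receptor tyrosine kinase for GDNF-family ligands, and its intronic site (chr6:118194712-118195632) had a pileup of 234 at 168 h against 35 at 72 h, a ratio of 3.19 (interval 2.23 to 4.69), and a percentile of 99.4 against 63.3.

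The ratios with the lowest upper bounds lay at sites of low background, 2.03 to 3.55 over both stages. The site 15.5 kb upstream of Lyg2 (chr1:37931757-37932206) had a pileup of 11 at 168 h against 55 at 72 h, a ratio of 0.0954 (interval 0.0450 to 0.184). The promoter of Ucp1, which encodes the uncoupling protein of brown fat, had 10 at 168 h against 33 at 72 h, a ratio of 0.145 (lower bound 0.0636). The other 8, near or in Gm21863, AU018091, Gm20671, Slc24a2, Lnx1, Tbc1d31, Nuak2 and Sertm1, had pileups of 10 to 18 at 168 h and 38 to 51 at 72 h. None of these 10 sites was acetylated at 168 h, and those in Slc24a2 and near Lnx1 were acetylated at 72 h.

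The promoters of developmental genes mostly held either a shared CTCF site or none. Of 21829 protein-coding genes, 29.8% had a shared site within 1 kb of a start, 3.07% had a 168 h-only site alone and 4.80% a 72 h-only site alone. Among 19 neural genes these numbers were 6, 0 and 0, and Pax6, a regulator of the eye and neural tube, had 168 h-only sites beside a shared one. Among 10 endoderm genes they were 2, 0 and 2, where the 72 h-only promoters were those of the epithelial adhesion genes Cdh1 (pileup 21, acetylated at 72 h only) and Epcam (pileup 8). Among 24 genes of the primitive streak and tail they were 7, 2 and 0, with 168 h-only sites at Cyp26a1, which degrades retinoic acid (pileup 17, acetylated at 168 h only), and Wnt5a (pileup 37). Among 20 genes of the presomitic mesoderm they were 6, 2 and 1, with 168 h-only sites at the Notch pathway genes Dll1 (pileup 21) and Lfng (pileup 34) and a 72 h-only site at Msgn1 (pileup 15, acetylated at 72 h only). Cdx2, a caudal homeobox gene, held 1 promoter site of each kind, with pileups of 18 at 168 h and 20 at 72 h.

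The remaining lists held few promoters in 1 list only. In naive pluripotency, Klf5 (pileup 16) and Lefty1 (pileup 21) had 168 h-only sites and Zfp42 (pileup 12) a 72 h-only site. In the formative epiblast list, Etv4 (pileup 10) and Zic2 (pileup 15) had 168 h-only sites. Among 20 loop extrusion genes, Rec8, the meiotic cohesin subunit (pileup 26), and Rad21 itself (pileup 9) had 72 h-only sites. Taf7l, a germline gene of the X chromosome, had a 72 h-only site (pileup 10). At imprinted loci, Peg3 had a 168 h-only site with a pileup of 81 over a background of 21.1, present in 6 of 6 mutant CTCF lists, and Kcnq1ot1 a 72 h-only site (pileup 11). Upstream of Xist, the RNA that silences the X chromosome, a 168 h-only site had a pileup of 40 and RAD21 in 13 of 16 lists. None of the 17 cardiac, vascular and blood genes had such a promoter.

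Sites within 50 kb of gene starts were counted next. Around neural genes, 16 of 104 sites (15.4%) were 168 h only and 7 (6.73%) were 72 h only, beside 12.3% and 17.7% around all protein-coding genes. Around endoderm genes, 2 of 59 sites (3.39%) were 168 h only and 12 (20.3%) were 72 h only. Around genes of X chromosome architecture, 4 of 49 (8.16%) were 168 h only and 16 (32.7%) were 72 h only, but 13 of these 16 were around Firre. Without Firre, 3 of 32 sites (9.38%) were 168 h only and 3 (9.38%) were 72 h only. In the other 8 lists the share of 168 h-only sites was 8.76% to 17.4% and that of 72 h-only sites was 16.4% or more. These counts are descriptions of short lists, and a site near several genes was counted for each.

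At the 4 Hox clusters, most CTCF sites were shared, and no site in 1 list only lay above percentile 50 of its list. Over all shared sites of the genome, 44.6% ranked higher at 168 h. The HoxD cluster with its flanks of 20 kb (chr2:74648310-74785142) held 12 sites, of which 9 were shared, 1 was 168 h only and 2 were 72 h only. The shared sites had ratios of 0.822 to 1.45, and 5 of 9 ranked higher at 168 h. The 168 h-only site was at Hoxd4 (pileup 16), and both 72 h-only sites lay upstream of Hoxd1 (pileups 11 and 17). The largest rank changes of the cluster were at the exon of Evx2 (93 at 168 h against 54 at 72 h, -14.9 points) and near Hoxd10 (134 against 44, 12.5 points).

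The HoxA cluster (chr6:52135590-52280880) held 11 sites, 8 shared and 3 in the 168 h list only. Of the shared sites, 4 of 8 ranked higher at 168 h, with a median rank change of -1.88 points and a range of -9.48 to 11.7 points. The site at the start of Hoxa7 had a pileup of 227 at 168 h against 57 at 72 h, a ratio of 1.90 (interval 1.42 to 2.59), and percentiles of 99.03 at 168 h and 87.3 at 72 h. The 168 h-only sites lay in the Hoxa3 gene (pileup 35), at Hoxa13 (pileup 24) and 20.0 kb upstream of Hoxa13 (pileup 18, word 2).

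The HoxB cluster (chr11:96174316-96388256) held 16 sites, and 3 of the 12 shared ones ranked higher at 168 h, with a median rank change of -4.01 points. Sites between Hoxb13 and Hoxb9 (63 at 168 h against 58 at 72 h, -26.6 points; 43 against 40, -28.4 points) and between Hoxb5 and Hoxb4 (67 against 53, -27.0 points) had the lowest rank changes. The HoxC cluster (chr15:102901103-103056852) held 5 shared and 3 72 h-only sites, and 4 of the 5 ranked higher at 168 h. The site downstream of Hoxc12 had a pileup of 52 at 168 h against 15 at 72 h, a ratio of 1.65 (interval 0.917 to 3.16) and a rank change of 28.5 points. The site at the promoter of Hoxc10 was strong at both stages, with 268 at 168 h against 82 at 72 h and percentiles of 99.5 at 168 h and 99.1 at 72 h.

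**Figure D4:**
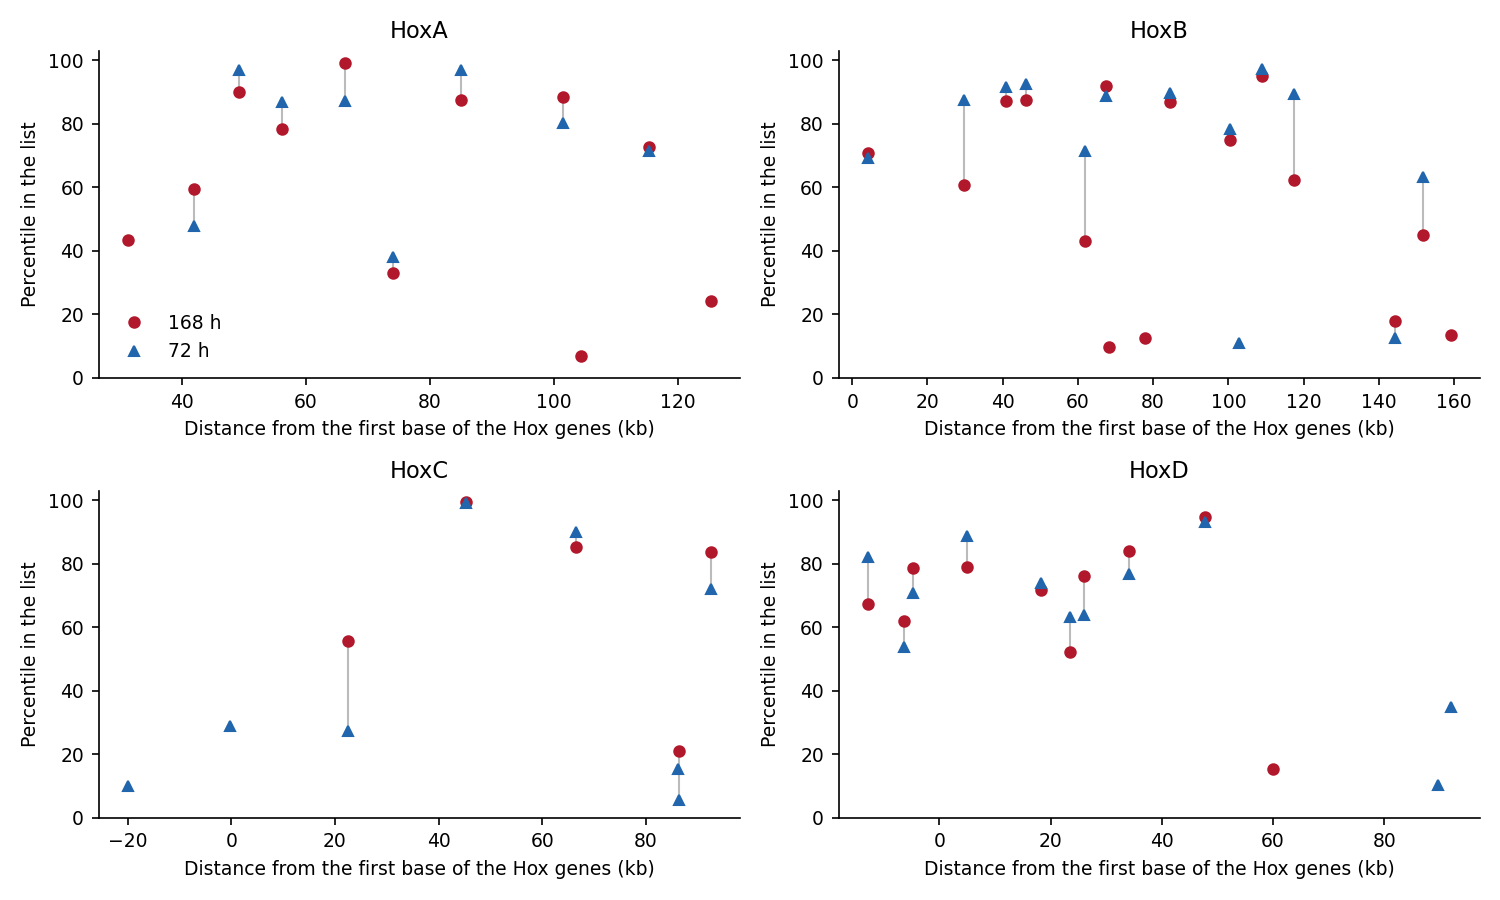
Percentile of each CTCF site within its list (vertical axis, 100 is highest) against its distance from the first base of the Hox genes (kb), for 168 h (red circles) and 72 h (blue triangles); grey lines join the values of a shared site and a lone symbol is a site in 1 list only. The clusters held 11 (HoxA), 16 (HoxB), 8 (HoxC) and 12 (HoxD) sites, and every unshared site lay below percentile 50.

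Chromosome X differed from the autosomes. Of its 1760 sites, 6.53% (interval 5.42 to 7.79) were 168 h only and 25.6% (interval 23.5 to 27.7) were 72 h only. On the autosomes the shares were 11.7% to 15.0% for 168 h only, and at least 15.7% but below that of X for 72 h only. The median pileup share ratio of shared sites was 0.738 on X, against 0.889 on autosomes. At shared sites with a match at the stricter score, the median pileup on X over that on autosomes was 0.593 at 168 h and 0.707 at 72 h. On chromosome Y it was 1.71 at 168 h and 0.939 at 72 h, over 8 sites. The share of shared sites on X minus that on autosomes was -1.46 to -28.7 points in the 6 mutant CTCF lists and -4.98 to 4.76 points in the 16 RAD21 lists. The sex chromosome make-up of each pool of cells and its part in these values were not tested.

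**Figure D5:**
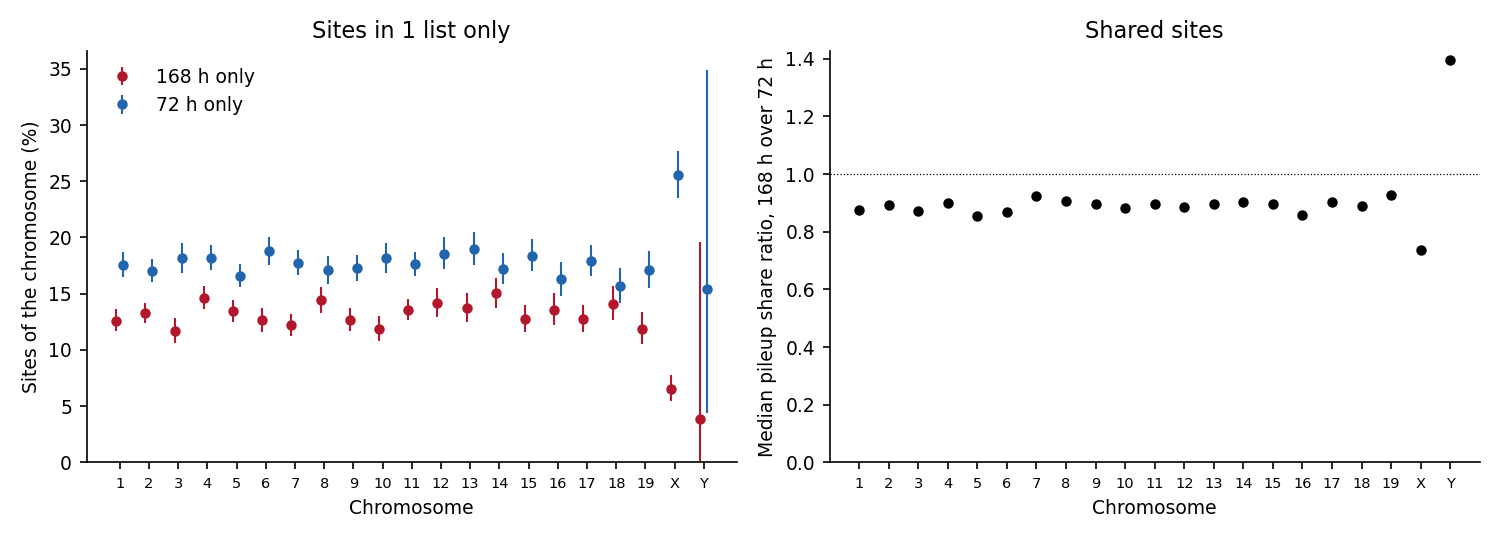
Sites in 1 list only as a share of the sites of each chromosome (left, %, with exact 95% intervals) and median pileup share ratio of shared sites (right, 168 h over 72 h). Chromosome X had 6.53% 168 h-only and 25.6% 72 h-only sites and a ratio of 0.738; chromosome Y held 26 sites in all.

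A dense group of 72 h-only sites lay at Firre. Firre is a long non-coding RNA gene of the X chromosome whose repeats carry many CTCF sites and whose locus takes part in long loops on the inactive X. The window of 250 kb with the most 72 h-only sites, together with 1 on chromosome 11, was chrX:50500001-50750000, with 14 of them against 1 168 h-only site. Over the gene itself (chrX:50555744-50635321, minus strand) 11 of 12 sites were 72 h only, 1 was shared and none was 168 h only, beside 25.1% 72 h-only sites on the rest of X. The pileups at 72 h were 11 to 18, and the shared site, at the start of the gene, had 29 at 168 h against 17 at 72 h (ratio 0.814, interval 0.433 to 1.58). A match within 100 bp was found at 8 of the 12 sites. The same word, tCCTCATGGTGGCagta, was found at 3 of them, so that these sites share sequence and are not independent. RAD21 was found at the 12 sites in 0 to 6 of the 16 lists. The window with the most 168 h-only sites (12, with 4 72 h only and 16 shared) was chr4:141000001-141250000, around Crocc and Arhgef19, where 2 of the 12 held a match.

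Other CTCF libraries held both kinds of unshared sites at similar rates. At least 1 of the 6 CTCF lists of mutant stembryos at 96 h, 120 h or 144 h held 35.2% of 168 h-only sites, 35.1% of 72 h-only sites and 95.2% of shared sites. All 6 held 1 168 h-only site, 6 72 h-only sites and 44.9% of the shared sites. In the list of Ins(2xCBS-d4d8) at 144 h, the latest of the 6, 7.21% of 168 h-only and 4.06% of 72 h-only sites were found. In the list of Del(CBS1-5) at 96 h it was 8.60% and 16.8%. In the list of Del(CBS1) at 96 h, in contrast, it was 15.0% and 12.7%. The 6 lists come from altered lines, so that line and stage cannot be told apart. By the study's methods, the CTCF reads of Ins(2xCBS-d4d8) were mapped to that mutant's genome, with its insertion in the HoxD cluster. Positions past the insertion on that chromosome may thus be offset in its list. The effect on its shares and on the counts over the 6 lists was not tested.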

How the data were processed

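Per the labels and the study's methods, the authors trimmed reads with cutadapt 1.16, mapped them to mm10 with Bowtie2 2.3.4.1, kept proper pairs of high mapping quality with SAMtools 1.8 and called peaks with MACS2 2.1.1.20160309 with summits, without an input control, in each library alone. The CTCF reads of Ins(2xCBS-d4d8) were mapped to the genome of that mutant instead. The deposited peak lists give the fold enrichment of pileup over local background, as a ratio, and the −log10 p and −log10 q that the authors' peak caller assigned. From these, pileup and background were solved to a tolerance of 0.001 in −log10 p. Of the files, 43 were used and 37 were not used here.

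Touching peaks were joined, overlaps of at least 1 base made a site, and promoters were taken from GENCODE M21 transcripts. Sites were named by the nearest protein-coding start: the 10 promoter and 10 distal sites of highest rank in each list only, the 10 shared sites with the highest lower bound and the 10 with the lowest upper bound of the ratio, the sites of the Hox clusters, promoter sites of the gene lists and the densest windows of 250 kb. Firre and the motif words were chosen after values were seen. Members and gene lists were chosen with earlier results of these data known. The words were counted outside a chromosome whose sequence was left out of that count. This kept 3753 of 3873 matches within 100 bp at 168 h-only, 7247 of 7419 at 72 h-only and 39314 of 40472 at shared sites. The shares of sites with a match used all sites. Trends with time were tested by exact permutation of stage means. Procedures were tested on simulated data. Alternatives covered overlap, threshold, list length, promoter distance, scaling, motif score, stages, lists and label tags. Python 3.11.15, NumPy 2.4.6, pandas 2.3.3, SciPy 1.17.1 and Matplotlib 3.10.9 were used.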

Additional observations from a re-analysis of the deposited data

Results flagged for a closer look

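Peaks outside the 21 assembled chromosomes were not part of any comparison. The mitochondrial genome held 28 peaks in the 168 h list and 41 in the 72 h list. Unplaced or random contigs held 75 peaks in the 168 h list and 88 in the 72 h list. With no control library, these were set only against the limit that a count of 0 allows.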

How the results depend on the processing

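Of 118 alternative values, 73 stayed close to the reported ones and 45 moved. Directions did turn: with the lowest background as scale the median log2 ratio was 0.36 in place of -0.18, at equal list length the 168 h list had more unshared regions (10942) than the 72 h list (8926), and at a −log10 q of at least 5 the promoter share was higher at 168 h-only than at 72 h-only sites. Values are given for 168 h-only, then 72 h-only, then shared sites. A reciprocal overlap of at least 50% gave 32153 and 38416 unshared regions, and a −log10 q of at least 5 gave 5655 and 7423. Promoter shares were 17.0%, 17.4% and 17.4% within 2.5 kb and 17.0%, 18.1% and 18.9% with the starts of all annotated genes. With a −log10 q of at least 5 they were 12.96% for 168 h-only and 10.01% for 72 h-only sites, and at equal list length 10.98% for 72 h-only sites. Distal H3K27ac of 168 h within 500 bp was 6.56%, 3.49% and 7.21%, and within 250 bp of the summit 4.71%, 2.42% and 4.85%. With a −log10 q of at least 5 it was 4.94% at 168 h-only and 5.75% at shared sites. Distal H3K27ac of 72 h within 500 bp was 5.56%, 9.79% and 10.9%, and with H3K27ac lists of equal length 2.32%, 4.34% and 6.57%. With a −log10 q of at least 5 it was 3.21% at 168 h-only and 8.77% at shared sites, and within 250 bp of the summit 7.55% at 72 h-only and 7.20% at shared sites. Shared sites at least 2-fold higher and lower at 168 h numbered 5568 and 1433 scaled by the lowest background, 815 and 4024 scaled by the median ratio, and 1633 and 9339 with pileups summed over the summits of a region. The motif within 100 bp was found at 42.1%, 59.0% and 82.96%, and at the score of 1% of background windows at 21.9%, 29.8% and 54.7%. Within 250 bp of the summit, 38.3% of 168 h-only and 37.2% of 72 h-only sites were in another CTCF list. The windows of 250 bp around the summit, and leaving out X and Y, Firre or the stages 72 h and 168 h, were chosen after seeing the data. The causes were not tested.

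For RAD21, Spearman's correlation was 0.929 to 1 with each list left out in turn, and over all 16 lists with a replicate block, whose numbers tie no samples together in the labels, it was 0.921 (2e-05, 100000 permutations) with r of 0.933 (1e-05). Without 72 h and 168 h, the stages of the CTCF lists, Spearman's correlation was 1 for RAD21 and 0.893 for H3K27ac. For H3K27ac, Spearman's correlation was 0.905 to 0.976 with each stage left out. With 1 CTCF library at each stage, a site missing from a list may lie under its calling threshold.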

Other observations

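NIPBL, which takes part in loading cohesin, lay over 4.00% of distal 168 h-only sites, 2.49% of distal 72 h-only sites and 7.57% of distal shared sites in the 168 h list, which held 37907 regions. In the 72 h list, which held 6652 regions, the shares were 0.366%, 1.33% and 0.727%.

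PolII of 168 h lay over 1.21% of distal 168 h-only and 1.48% of distal 72 h-only sites. PolII of 72 h lay over 1.12% of distal 168 h-only and 3.20% of distal 72 h-only sites. Each of these marks was measured in 1 library at each stage.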
